A study of Homo sapiens with 5 samples.

Results

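The genes described here are the chaperones and partner proteins that carry the histone variant H3.3 into chromatin: HIRA, UBN1, UBN2 and CABIN1 of the HIRA complex, DAXX and ATRX, the histone carriers ASF1A, ASF1B and NASP, and DEK. They were taken by name, not by their values, and make up 10 of 43714 gene rows. The study knocked down H3F3A, one of the genes for H3.3, in Rh41, an established line of fusion-positive alveolar rhabdomyosarcoma, a childhood sarcoma of muscle-like cells. These cells were given an siRNA against H3F3A (3 libraries) or a scrambled siRNA (2 libraries) for 48 hours with Lipofectamine RNAiMAX, and poly-A RNA was sequenced. All 5 libraries come from this 1 line, 1 siRNA label stands for the knockdown, and nothing in the labels says that replicates were separate cultures, and the spread behind each p-value may be technical. In bulk RNA, fewer cells of a kind and less RNA per cell cannot be told apart.

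H3.3 replaces canonical H3 outside DNA replication. The HIRA complex places it at active genes and at gaps in nucleosomes: HIRA is the scaffold, ubinuclein subunits (UBN1 or UBN2) recognise H3.3, CABIN1 is a further scaffold subunit, and ASF1A passes H3-H4 dimers on to the complex. DAXX, with the ATP-dependent remodeller ATRX, places H3.3 at telomeres and pericentric heterochromatin. NASP protects the pool of soluble H3-H4, ASF1B is the ASF1 paralog tied mostly to proliferating cells, and DEK is a chromatin protein that limits where H3.3 is loaded.

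RefSeq promoter entries (build GRCh38.p14) matched 8 of the 10 genes, all but DAXX and ATRX. In the 250 bases before the transcript start, 5 of 8 held a CCAAT box (letters CCAAT, either strand), as did 32% of all RefSeq promoters, and 7 of 8 held a GC box (letters GGGCGG, either strand), as did 42.6% of all. These matches are descriptions and name no bound factor. The upstream regions shown are those of the ubinuclein paralogs UBN1 and UBN2, whose read levels differed several-fold, and that of NASP, the member with the highest level. Capitals mark CCAAT and GC boxes.
UBN1 (chr16:4847231-4847480, plus strand): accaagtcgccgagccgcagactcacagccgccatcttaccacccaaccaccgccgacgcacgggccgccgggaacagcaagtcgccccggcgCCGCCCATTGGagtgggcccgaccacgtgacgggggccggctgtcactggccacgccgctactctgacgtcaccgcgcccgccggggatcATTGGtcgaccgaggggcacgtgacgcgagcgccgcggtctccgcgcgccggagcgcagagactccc
UBN2 (chr7:139230987-139231236, plus strand): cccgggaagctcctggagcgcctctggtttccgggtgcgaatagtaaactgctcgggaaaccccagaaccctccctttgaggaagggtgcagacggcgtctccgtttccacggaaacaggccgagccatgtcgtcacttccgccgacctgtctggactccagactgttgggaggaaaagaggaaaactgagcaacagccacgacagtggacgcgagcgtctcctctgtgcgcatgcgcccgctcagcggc
NASP (chr1:45583791-45584040, plus strand): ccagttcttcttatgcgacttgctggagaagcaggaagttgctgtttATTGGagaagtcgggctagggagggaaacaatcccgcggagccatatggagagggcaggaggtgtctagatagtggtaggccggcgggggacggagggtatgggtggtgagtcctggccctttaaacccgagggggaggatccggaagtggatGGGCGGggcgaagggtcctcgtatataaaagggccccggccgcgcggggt
UBN1 held 2 CCAAT boxes and 1 GC box, and UBN2 held neither. NASP held 1 of each and, alone of the 8, a TATA box (letters TATAAA, either strand), which 10.7% of all RefSeq promoters hold.

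Each library held between 28493573 and 30705963 reads assigned to genes. H3F3A (the row named H3-3A) stood at 9.38, 10.5 and 8.54 CPM in H3F3A siRNA libraries, against 294 and 269 CPM in scrambled siRNA libraries, so 3.36% of its level was left (edgeR adjusted p = 9.04e-21). CPM are counts scaled to a common library size, here after TMM. H3F3B, the other H3.3 gene, averaged 819 CPM in H3F3A siRNA libraries and 821 CPM in scrambled siRNA libraries (adjusted p = 0.988). The list of 8 rhabdomyosarcoma markers, MYOD1, MYOG and DES among them, passed the filter on low counts in full and summed to 4133 to 4193 CPM in H3F3A siRNA libraries and 4732 to 5854 CPM in scrambled siRNA libraries, with 1 gene called higher (TFAP2B) and 1 lower (FGFR4). Markers of immune cells summed to at most 1.07 CPM, of endothelium to at most 3.27 CPM and of epithelium to at most 6.79 CPM in any library. Those of fibroblasts summed to 72.2 to 79.1 CPM in H3F3A siRNA libraries and 90.4 to 99.2 CPM in scrambled siRNA libraries, with COL1A1 and PDGFRB called lower among 4 of 6 markers tested. The other 2 tested were not called, COL1A2 (log2 fold change -0.28, adjusted p = 0.19) and FAP (0.86, adjusted p = 0.185), and DCN and LUM had too few reads. Scrambled siRNA replicate 1 stood apart: relative to the average library, its log2 CPM climbed by 0.144 for each 10 points of GC content across 14388 genes, against slopes of -0.0591, -0.0387 and -0.0406 in the H3F3A siRNA libraries and -0.00603 in scrambled siRNA replicate 3. The markers called lower were GC-rich. FGFR4 (63.6% GC) had 2184 CPM in scrambled siRNA replicate 1 and 1783 in replicate 3, and COL1A1 (61.1%) had 44.4 and 35.2. PDGFRB (57.6%) had 44.5 and 44.3 CPM, alike in both. Whether the GC trend produced these calls was not tested.

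No chaperone gene was called after H3F3A siRNA. A gene was called at a Benjamini-Hochberg adjusted p under 0.05 in edgeR's quasi-likelihood test over 15859 genes, and 3.2% of these were called. DAXX and ASF1B had too few reads to be tested, and of the other 8 members 0 rose and 0 fell, against 0.504% and 2.69% of all genes tested. At such shares, 0 calls among 8 genes says little about the chaperones. An unadjusted p under 0.05 was reached by 2 members, UBN2 and ATRX, and by 16.8% of all genes tested. DESeq2 likewise called 0. Of the 8 tested, 6 lay above 0 and 2 below, with a median log2 fold change of 0.084, against 0.0073 for all genes tested, of which 51.4% lay above 0. Among these 8, NASP alone had groups that did not overlap, which was so in 33.1% of all tested genes, with every H3F3A siRNA library higher in 16% and lower in 17.1%.

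**Figure D1:**
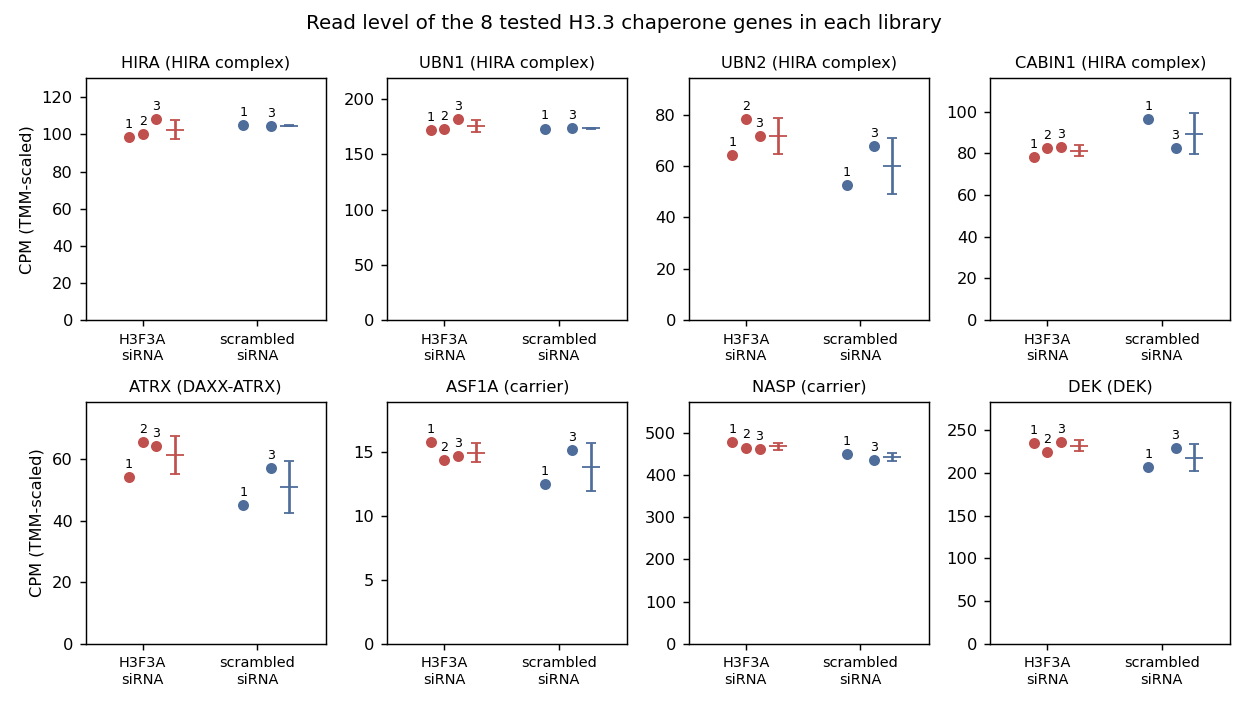
CPM (scaled by TMM, linear axis from 0) of the 8 tested chaperone genes in each library, with H3F3A siRNA in red on the left and scrambled siRNA in blue on the right. Numbers are replicate numbers, and bars beside the points are mean ± SD (n = 3 and n = 2). Scrambled siRNA replicate 1 is the lowest library for UBN2, ATRX, ASF1A and DEK and the highest for CABIN1.

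Among subunits of the HIRA complex, the scaffold HIRA and the ubinuclein UBN1 had the log2 fold changes nearest to 0 of the 8, with intervals that leave room for small changes in either direction. HIRA stood at 98.8, 100.5 and 108 CPM in H3F3A siRNA libraries, against 105 CPM in both scrambled siRNA libraries. Its log2 fold change was -0.031 (SE 0.076, adjusted p = 0.877), and the 95% interval of the ratio ran from 0.878 to 1.09. UBN1 stood at 172, 173 and 182 CPM, against 173 and 174 CPM in scrambled siRNA libraries, with a log2 fold change of 0.017 (SE 0.073, adjusted p = 0.937) and a ratio between 0.911 and 1.12. In both genes the scrambled siRNA values lay within the range of the H3F3A siRNA values.

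UBN2, the alternative ubinuclein, had 64.5, 78.5 and 71.8 CPM in H3F3A siRNA libraries, against 52.5 and 67.7 CPM in scrambled siRNA libraries. H3F3A siRNA replicate 1 lay below scrambled siRNA replicate 3, so the groups overlapped. The log2 fold change was 0.25 (SE 0.10, adjusted p = 0.19). CABIN1 lay on the other side of 0, with 78.2, 82.5 and 83.0 CPM against 96.6 and 82.4 CPM in scrambled siRNA libraries and a log2 fold change of -0.14 (SE 0.081, adjusted p = 0.404). Here scrambled siRNA replicate 3 lay among the H3F3A siRNA libraries and replicate 1 above all of them. CABIN1 has 1 numbered copy among the rows, which held no read, so its level is uncertain.

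ATRX, the remodeller of the DAXX-ATRX pair, had 54.1, 65.4 and 64.2 CPM in H3F3A siRNA libraries, against 45.0 and 57.0 CPM in scrambled siRNA libraries. As with UBN2, scrambled siRNA replicate 1 was lowest and H3F3A siRNA replicate 1 lay below scrambled siRNA replicate 3. The log2 fold change of 0.26 (SE 0.10, adjusted p = 0.167) was the furthest from 0 of the 8.

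ASF1A, the carrier that feeds HIRA, was the member with the fewest reads among those tested, at 15.8, 14.4 and 14.8 CPM in H3F3A siRNA libraries, against 12.5 and 15.2 CPM in scrambled siRNA libraries (log2 fold change 0.11, SE 0.11, adjusted p = 0.635). NASP, the keeper of soluble H3-H4, had 477, 465 and 462 CPM in H3F3A siRNA libraries, against 449 and 437 CPM in scrambled siRNA libraries. Every H3F3A siRNA library was above both scrambled siRNA libraries. The difference was small, a log2 fold change of 0.080 (SE 0.074, adjusted p = 0.63) with a ratio between 0.951 and 1.17. DEK had 235, 225 and 236 CPM, against 207 and 230 CPM in scrambled siRNA libraries (log2 fold change 0.089, SE 0.076, adjusted p = 0.599), and its groups overlapped.

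The calls turned on which scrambled siRNA library served as control. Without scrambled siRNA replicate 3, leaving replicate 1 as the lone control, UBN2 (log2 fold change 0.45, adjusted p = 0.00306) and ATRX (0.44, adjusted p = 0.00498) were called higher and CABIN1 (-0.25, adjusted p = 0.0196) lower, and 15.1% of all tested genes were called. Without scrambled siRNA replicate 1, the same log2 fold changes were 0.077, 0.10 and -0.024, none of them called, and far fewer genes of any kind were called. The lone control in each of these fits is assumed to vary like the other group.

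**Figure D2:**
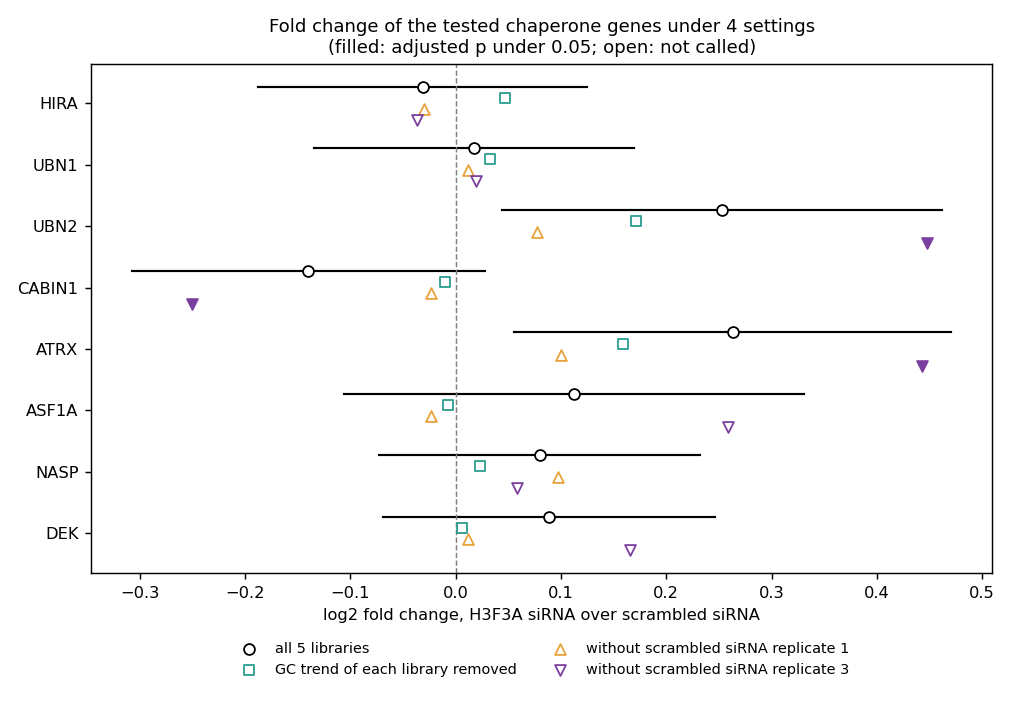
Log2 fold change (H3F3A siRNA over scrambled siRNA) of the 8 tested chaperone genes with all 5 libraries (circles, bars are 95% intervals), with the GC trend of each library removed (squares), and without scrambled siRNA replicate 1 or 3 (triangles up and down). Filled symbols are called genes: UBN2, ATRX and CABIN1 are filled only without scrambled siRNA replicate 3, and lie nearer to 0 without replicate 1 or the GC trend.

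The order of the members' fold changes followed their GC content, the property along which scrambled siRNA replicate 1 stood apart. The 5 tested members with transcripts under 50% GC (ASF1A at 34.9%, ATRX at 36.8%, UBN2 at 40.0%, DEK at 40.4% and NASP at 44.2%) all lay above 0. Of the 3 above it, UBN1 (51.1%) lay next to 0 while HIRA (55.9%) and CABIN1 (59.1%) lay below. Spearman's rho between GC content and log2 fold change was -0.93 over these 8 genes, which share the same 5 libraries, and -0.52 over the 14388 tested genes with a GC value. With the GC trend of each library removed, log2 fold changes were 0.17 for UBN2 (adjusted p = 0.478), 0.16 for ATRX (adjusted p = 0.486) and -0.011 for CABIN1 (adjusted p = 0.969), those of ASF1A, NASP and DEK were -0.0072, 0.023 and 0.0062, and that of HIRA was 0.047. Removing the trend also removes any true difference between groups that runs with GC content.

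**Figure D3:**
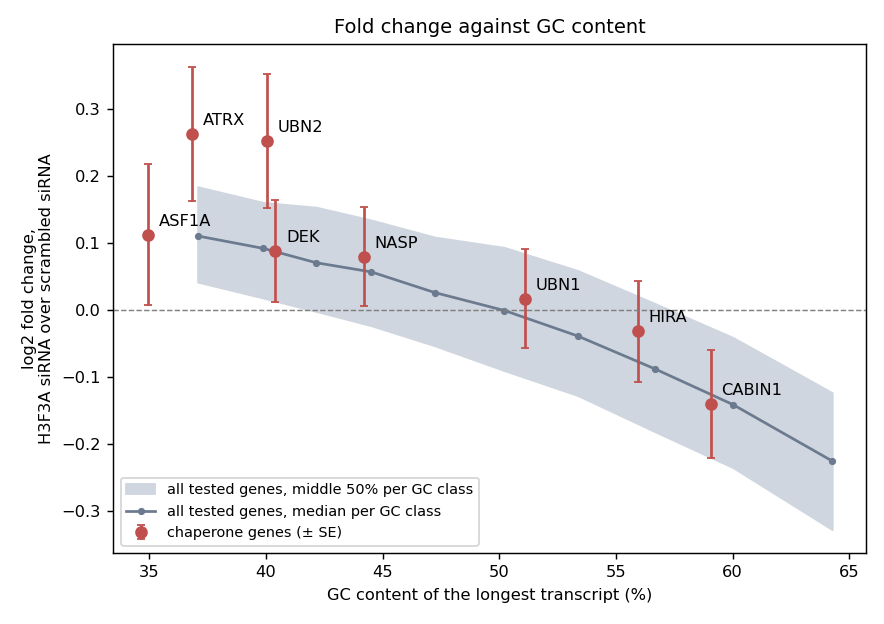
Log2 fold change (H3F3A siRNA over scrambled siRNA) against GC content of the longest annotated transcript, with chaperone genes in red (± SE) and all tested genes in grey as the median and middle 50% of 10 GC classes. The median of all genes descends from 0.11 in the class with the lowest GC content to -0.23 in the highest, and ATRX and UBN2 lie above the grey band while the other members lie within its height.

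Per kilobase of exon, NASP and DEK had the highest levels of the 8 tested members. Averaged over all 5 libraries, NASP had 137 CPM per kilobase and DEK 66.1, followed by HIRA at 25.5, UBN1 at 25.3, CABIN1 at 10.9, ASF1A at 6.15, ATRX at 5.12 and UBN2 at 4.64. On this scale HIRA (24.4 to 26.8 over the libraries) and UBN1 (24.9 to 26.3) could not be put in order, since either was higher in some libraries. Per kilobase of the longest annotated transcript, UBN1 averaged 27.6 CPM and HIRA 25.5, so their order depends on the length used. The ranges of ASF1A (5.30 to 6.68), ATRX (4.03 to 5.85) and UBN2 (3.63 to 5.44) overlapped. Within every library, though, ASF1A lay above ATRX and ATRX above UBN2. The other steps were wider than the spread over the libraries in these unstranded counts. With both stranded columns summed, on the same library sizes, ASF1A averaged 10.3 CPM per kilobase (9.595 to 10.9). It again lay above ATRX and UBN2 in every library and overlapped CABIN1 (10.1 to 12.4). UBN1 (28.2 to 31.2) then lay above HIRA (26.5 to 28.4) in every library, though their ranges overlapped. The summed columns can also hold reads of a gene on the opposite strand, so these levels may be too high. HIRA shares exon bases with C22orf39 on the same strand, so its level may be too low in either count. Summed per kilobase, the 4 HIRA subunits came to 63.8, 65.8 and 68.7 CPM per kilobase in H3F3A siRNA libraries, against 67.1 and 66.2 in scrambled siRNA libraries, and the groups overlapped.

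Within a library, UBN2 reads per kilobase amounted to 0.18, 0.218 and 0.189 of those of UBN1 in H3F3A siRNA libraries, against 0.145 and 0.187 in scrambled siRNA libraries. Those of CABIN1 amounted to 0.412, 0.428 and 0.399 of HIRA, against 0.479 and 0.411 in scrambled siRNA libraries. The groups overlapped in both ratios. ATRX per HIRA stood at 0.1986, 0.236 and 0.215, against 0.155 and 0.1979 in scrambled siRNA libraries. UBN2 per HIRA stood at 0.1832, 0.219 and 0.186, against 0.14 and 0.1819 in scrambled siRNA libraries. Both ratios separated the groups, but only barely. With both stranded columns summed, these ratios to HIRA overlapped between the groups, whereas UBN2 per UBN1 did not (0.158, 0.18 and 0.159 in H3F3A siRNA libraries, against 0.119 and 0.152 in scrambled siRNA libraries). No test was run on these ratios, and the share of all gene pairs that would separate the groups was not computed. For the levels of single genes, groups did not overlap in 33.1% of all tested genes.

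Some reads over ASF1A, UBN1 and HIRA were counted in a stranded column but not in the unstranded counts. Against the sum of both stranded columns, 36.4% to 44.8% of the reads over ASF1A were missing in each library, 11.9% to 18.3% of those over UBN1 and 5.71% to 7.87% of those over HIRA. For ASF1A the shares were 36.4%, 40.6% and 39.3% in H3F3A siRNA libraries, against 44.8% and 41.2% in scrambled siRNA libraries. With the stranded columns summed, ASF1A had a log2 fold change of 0.023, UBN1 of -0.026 and HIRA of -0.019, none of them called (edgeR adjusted p = 0.929, 0.903 and 0.93). GENCODE places exons of MCM9 opposite ASF1A and of GLYR1 opposite UBN1, with 137 and 115 shared bases, and the authors' annotation may differ. It lists no exon opposite HIRA, only exons of C22orf39 on the same strand, with 2857 shared bases. The first stranded column held 49.94% to 50.08% of the stranded counts in each library, so strand did not tell the reads of such gene pairs apart. The summed columns can thus include reads of the gene on the opposite strand. The unstranded level of ASF1A per kilobase is therefore a low estimate, and the summed level may be a high one. If the authors' gene models share these C22orf39 bases, HIRA reads there may be ambiguous in every column, and summing would not restore them. The levels of HIRA per kilobase may then be low and the ratios to HIRA high, which was not tested.

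DAXX and ASF1B cannot be read as silent. DAXX is spread over 5 rows of the same name, 4 of them numbered copies, which together held 11, 4 and 6 reads in H3F3A siRNA libraries, against 11 and 9 in scrambled siRNA libraries. ASF1B has 2 rows and held 1 read in H3F3A siRNA replicate 1 and none in any other library. Genes that every cell uses are listed as low: RPS18, a ribosomal protein gene with 6 rows, had at most 3 reads in any library, and PFDN6, a prefoldin subunit beside DAXX, had none. In the 9 neighbours of DAXX with a row, all with numbered copies, PHF1 had the most reads (at most 210). Around ASF1B, DDX39A, which has no copy, had up to 4696 reads, while PRKACA and ADGRL1, which have 1 copy each, had at most 13 and 6. There were exceptions both ways: SAMD1, with 1 copy, reached 743 reads, and PTGER1, with none, reached 7. Over all protein-coding genes, 70.1% of 1250 with numbered copies stayed under 10 reads in every library, against 27.9% of 17653 with a single row. Reads that fit several places made up 6.28% to 6.42% of each library, and whether reads of DAXX and ASF1B are among them was not tested.

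**Figure D4:**
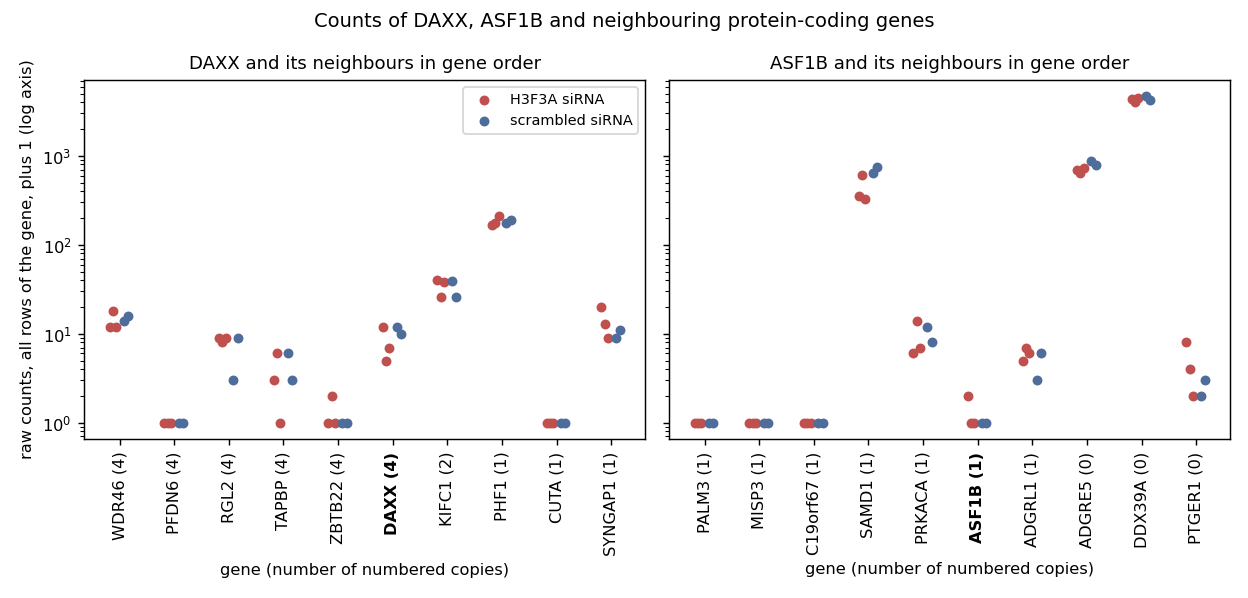
Raw counts plus 1 (log axis), summed over all rows of a gene, for DAXX (left) and ASF1B (right) and neighbouring protein-coding genes in gene order (not every neighbour is shown), with H3F3A siRNA in red and scrambled siRNA in blue. Brackets give the number of numbered copies. DDX39A and ADGRE5 without copies reach 4696 and 864 reads, whereas DAXX and ASF1B stay at 11 and 1 read or fewer.

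Other genes that handle H3 and H4 were called no more than the members. Of 22 tested chaperones and factors outside the pathways above, 0 rose, 0 fell and 22 were not called (median log2 fold change -0.012). Over all genes tested 3.2% were called, so 0 calls in a list this short says little about it. TONSL, which reads new H4 on replicated chromatin, had the value furthest from 0, at 50.9 ± 6.62 CPM (SD, n = 3) and 62.9 ± 9.02 CPM (SD, n = 2; log2 fold change -0.31, adjusted p = 0.11 in edgeR). Its level was 69.2 CPM in scrambled siRNA replicate 1 and 56.5 CPM in replicate 3, close to the 55.9 CPM of H3F3A siRNA replicate 3. TONSL has 1 numbered copy, which held no read. CDAN1, which restrains ASF1, lay at -0.20 on the log2 scale (adjusted p = 0.211). IPO4, an importin for H3-H4, has 1 numbered copy and no read in either row.

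Partners of the DAXX-ATRX pair and of PML bodies were not called either, with 0 of 19 past the threshold and a median of 0.048. The same limit holds for this list and the next 2, beside the 3.2% called over all genes tested. The log2 fold changes were -0.21 for PML, the scaffold of the nuclear bodies in which DAXX resides (adjusted p = 0.192), and 0.21 for ATF7IP, the partner of the H3K9 methyltransferase SETDB1 (adjusted p = 0.159). Of 19 HIRA partners and remodellers of active genes 0 were called (median 0.020). CCNE2, a cyclin E, stood at 10.5 ± 0.583 CPM (SD, n = 3) and 8.06 ± 0.439 CPM (SD, n = 2), with a log2 fold change of 0.38 (adjusted p = 0.0675 in edgeR), and SMARCA4, the BRG1 remodeller, had -0.21 (adjusted p = 0.16). Of 10 proliferation genes, set beside NASP, whose protein serves DNA replication, 0 were called. Their summed level was 2841 to 2878 CPM in H3F3A siRNA libraries and 2766 to 2860 CPM in scrambled siRNA libraries. The values furthest from 0 were those of MCM5, at -0.17 on the log2 scale (edgeR adjusted p = 0.302), and PCNA, at 0.15 (adjusted p = 0.33). Fold changes of the genes named from these lists ran with GC content, as those of the members did. TONSL (63.6%), SMARCA4 (61.4%), CDAN1 (59.0%), PML (58.2%) and MCM5 (57.0%) lay below 0. PCNA (45.25%), ATF7IP (40.2%) and CCNE2 (36.9%) lay above it. These genes were named because they lay furthest from 0 in their lists. Given the trend over all genes, their order by GC content therefore adds no support of its own. Whether the GC trend produced these values was not tested.

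**Figure D5:**
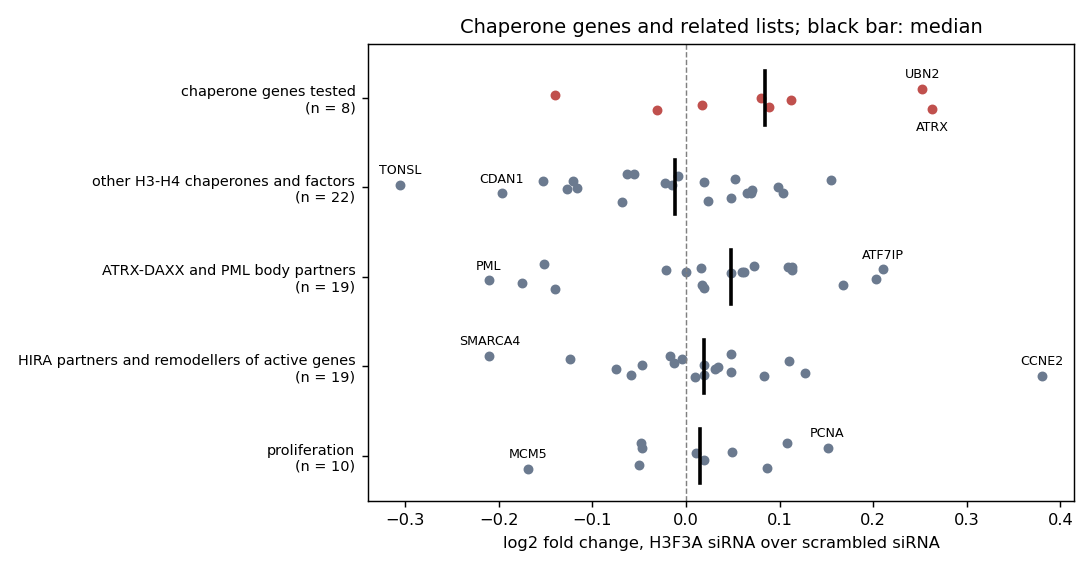
Log2 fold change (H3F3A siRNA over scrambled siRNA) of the 8 tested chaperone genes (red) and of 4 related lists (grey), 1 point for each gene, with the median as a black bar and the 2 genes furthest from 0 named. No point is a called gene, and the medians lie between -0.012 and 0.084.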

How the data were processed

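Per the labels' protocols, poly-A RNA of TRIzol extracts was fragmented, primed with random hexamers and made into libraries with a NEBNext Ultra kit. The deposited values are raw counts of reads per gene, 1 unstranded column and 2 stranded ones. The submitters' processing notes name STAR 2.5, HTSeq 0.6.1, DESeq2 and hg19 without saying what each did. The 43714 rows hold 4791 numbered copies of 2420 genes, and the notes do not say where these copies come from. The authors' gene models are therefore unknown, and all coordinates here are those of GENCODE or RefSeq. In each file 4.84% to 5.48% of reads were unmapped, 9.17% to 10.2% overlapped no gene and 4.45% to 4.56% were ambiguous. These lines were left out.

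Unstranded counts were tested with edgeR 4.0.16 (R 4.3.3): filterByExpr on group (minimum count 10, minimum total 15), TMM, robust quasi-likelihood fit without covariates, adjusted over 15859 genes. The common biological coefficient of variation was 6.53%. DESeq2 1.42.0 was an alternative. GC content, exon lengths and overlaps came from GENCODE 29 (GRCh38), whose symbols matched all 10 members. The GC trend of each library was fitted by lowess (span 0.3) on log2 CPM (prior count 2) and entered as an offset. Genes without a GC value were left uncorrected. Replicates differed by more than sampling noise (chi-square per gene 3.54 to 13.3, where noise gives about 1).

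Groups were taken from the sample titles. Named genes were the members, H3F3A, H3F3B and, of each related list, the called genes or else the 2 furthest from 0. RPS18, the neighbours of DAXX and ASF1B, IPO4, COL1A2 and FAP were named after their values were seen. The members and lists were chosen with earlier results of these data known. A few genes outside the chaperone list are not reported here.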

Additional observations from a re-analysis of the deposited data

How the results depend on the processing

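Of 16 alternatives, 15 called 0 members, among them DESeq2, other scalings (RLE, upper quartile), other filters, robust=FALSE, summed stranded columns and the GC correction. Leaving out 1 library in turn gave 0 to 3 members called, with 3 only without scrambled siRNA replicate 3. H3F3A was called in all 16, with log2 fold changes of -4.97 to -4.82 when 1 library was left out. Of the members' values, 116 kept direction and call, and 3 (UBN2, ATRX, CABIN1 without scrambled siRNA replicate 3) gained a call. The other 9 turned direction, all in values near 0 and not called, and the cause was not tested. With the GC trend removed, these were HIRA (0.047, and 0.060 with the replicate block) and ASF1A (-0.0072). With the GC trend removed and scrambled siRNA replicate 1 left out, they were CABIN1 (0.015), ASF1A (-0.060) and DEK (-0.011). UBN1 had -0.026 with stranded columns summed and -0.0095 to 0.035 when 1 library was left out, and ASF1A had -0.023 to 0.26. Levels and ratios from the summed stranded columns were added after seeing the data.

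For replicate numbers 1 and 3, deviations from group means correlated at 0.112 and 0.0487 over genes between the groups. With 2 scrambled siRNA libraries, their deviations mirror each other, so mismatched numbers give -0.112 and -0.0487 by construction. These values therefore cannot tell paired from unpaired libraries. The labels say nothing of a shared batch, and the numbers were not taken to pair the libraries. With the replicate block, 0 members and 574 genes were called, and H3F3A had a log2 fold change of -4.97. Over all genes 507 were called (80 higher, 427 lower), against 116 higher and 323 lower with upper-quartile scaling, 792 in all without a filter, 277 with the GC trend removed, 986 with the block as well and 81 with scrambled siRNA replicate 1 also left out. Without 1 library the count was 102 (scrambled siRNA replicate 1), 2481 (scrambled siRNA replicate 3), 15, 177 and 308 (H3F3A siRNA replicates 1, 2 and 3).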
